A study of Oryza longistaminata with 12 samples.

Results

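OL02T002258 is the *Oryza longistaminata* gene model that carries the names OlAMT1;2 and OlAMT1;3 together, and it encodes an ammonium transporter. It was taken by its identifier from the deposited count table, where it is 1 of 29335 gene models and 1 of the 25005 gene models tested here. Both names point to this 1 row, so the counts cannot be divided between OlAMT1;2 and OlAMT1;3. Its mean level was highest in supplied roots whose partner was deprived (+N split, 54.6 CPM, that is, reads per 1000000 counted) and lowest in deprived roots whose partner was supplied (−N split, 11.3), with the roots of uniformly supplied and uniformly deprived pairs between them and close to each other (+N 20.5, −N 24.0). A deprived partner went with a 2.38-fold higher level, averaged over supplied and deprived roots, and the root's own ammonium went with a 2.03-fold higher level, averaged over both kinds of partner. Both averages passed the test across all genes. The partner difference did not pass in the main test within supplied roots alone or within deprived roots alone. The study had also called this gene higher in +N split on these same libraries. By RT-qPCR, which was not analyzed here, it reported OlAMT1;2 and OlAMT1;3 each as higher in +N split than in +N.

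Transporters of the AMT1 class sit in the plasma membrane of root cells and carry ammonium into them with high affinity. Inside the cell, glutamine synthetase joins ammonium to glutamate and glutamate synthase returns glutamate from glutamine, which is the main route by which paddy rice assimilates ammonium. In many plants the transcripts of ammonium transporters follow the nitrogen status of the root, and different members of the family can move in opposite directions.

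Ramet pairs are young plants that grew from adjacent nodes of a rhizome and are joined by it. The plants, all of strain IRGC10404, had been grown in hydroponic solution with 1 mM NH4Cl as the nitrogen source, and for the experiment each root of a pair was kept in a pot of its own for 24 h. In +N pairs both roots received 2.5 mM NH4Cl, and in −N pairs both were kept at 0 mM. A split pair had 2.5 mM in the pot of one root (+N split) and 0 mM in that of its partner (−N split). The roots of each of the 4 groups gave 3 libraries of polyadenylated RNA, and the ramets had been excised from clonal colonies, so the replicates are of 1 strain. The labels do not tie the +N split and −N split libraries to individual pairs, and they do not say whether libraries with the same number share a culture or day. For −N replicate 1 the treatment text is that of the split pairs while the title and source name are −N, and the title was followed.

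Between 39071838 and 56252511 reads were counted per library. The chi-square per gene between replicates was 22.7 to 54.5, above sampling noise in each of 12 pairs, so no library was treated as a copy. The 3 gene models described as root cap, root isozyme or root proteins were detected in every library, with a summed level of 176 to 325 CPM. All 20 photosynthesis gene models, markers of green tissue, were also detected in every library, none at 0, and their summed level was 2279 to 2951 in +N, 1409 to 3468 in +N split, 616 to 2016 in −N split and 1409 to 2066 in −N. In whole roots, fewer cells of a type and less RNA per cell cannot be told apart.

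OL02T002258 received 2071, 1558 and 3212 reads in the +N split libraries (replicates 1, 2 and 3), 843, 1126 and 925 in +N, 767, 1489 and 1237 in −N, and 328, 384 and 764 in −N split. The reads were scaled to CPM with the trimmed mean of M values (TMM), which corrects for differences in library composition. In +N split roots the CPM were 47.6, 40.1 and 76.2, with a mean of 54.6 ± 19.1 (SD, n = 3). In +N roots they were 20.2, 24.0 and 17.1, with a mean of 20.5 ± 3.47 (SD, n = 3). Each +N split library was therefore above each +N library. In −N roots the CPM were 19.5, 25.4 and 27.1, with a mean of 24.0 ± 3.99 (SD, n = 3). In −N split roots they were 7.25, 9.26 and 17.5, with a mean of 11.3 ± 5.43 (SD, n = 3). The −N libraries lay above all −N split libraries and overlapped the +N libraries, and the highest −N split library (17.5) lay above the lowest +N library (17.1). Counting error was small beside these differences: without TMM scaling, the lowest library (−N split replicate 1) had 7.74 CPM with an exact Clopper-Pearson 95% interval of 6.93 to 8.62, and the highest (+N split replicate 3) had 70.3 CPM with an interval of 67.9 to 72.7. These intervals cover counting error only.

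**Figure D1:**
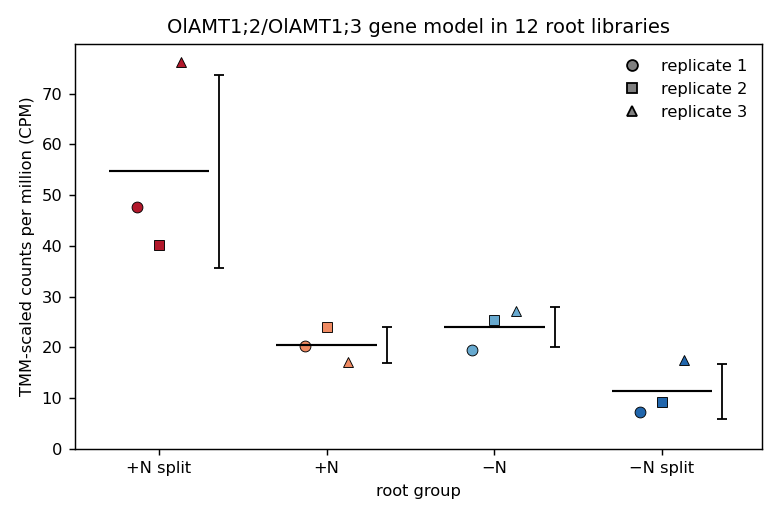
TMM-scaled CPM of OL02T002258 in each of the 12 libraries by root group, with the symbol giving the replicate number, the horizontal line the group mean and the bar beside it 1 SD on each side of the mean (n = 3). The 3 +N split libraries, at 40.1 to 76.2 CPM, sit above every other library, and the 2 lowest libraries are both −N split.

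The question of the split design is how a root responds to the nitrogen condition of its partner. Among roots that themselves received 2.5 mM, the level of OL02T002258 was 2.67-fold higher when the partner was deprived (+N split compared to +N, log2 fold change 1.42, SE 0.30, 95% interval 0.76 to 2.08). The groups did not overlap, which 8.71% of all tested genes showed in this direction. In the quasi-likelihood test of edgeR the Benjamini-Hochberg adjusted p was 0.0552, just outside the threshold of 0.05, which 0.68% of all genes passed as higher in +N split. Only 141 of the 25005 genes (0.564%) had a larger log2 fold change in this comparison. The gene model is in the study's own table of genes called higher in +N split on these libraries, so this difference is not independent evidence of its direction. The call moved with the test. In edgeR's exact test on the 6 libraries the adjusted p was 5.72e-06. It was 0.000177 in the DESeq2 Wald test and 0.00101 in edgeR's likelihood ratio test. These tests called more of all genes in either direction (2.29%, 3.2% and 2.33%, in that order) than the main test did (0.784%). The adjusted p ranged from 5.72e-06 to 0.224 over 21 alternatives, of which 7 passed.

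Among roots that received 0 mM, the same direction was measured. The level was 2.12-fold higher in −N than in −N split roots (log2 fold change 1.08, SE 0.31, 95% interval 0.42 to 1.75), that is, again higher where the partner was deprived. The groups did not overlap, as for 11.6% of all genes in this direction, and edgeR gave an adjusted p of 0.0742, a test that 2.74% of genes passed as higher in −N. Here 5 of 21 alternatives passed, among them the fit without −N split replicate 3 (log2 fold change 1.54, adjusted p = 0.0133 in edgeR). Without −N replicate 1, whose labels conflict, the log2 fold change was 1.21 and the adjusted p 0.109 in the same edgeR test.

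The partner was also tested over both strata at once. Averaged over supplied and deprived roots, a deprived partner went with a log2 increase of 1.25 (SE 0.22, 95% interval 0.78 to 1.72), and edgeR gave an adjusted p of 0.00470. The average includes the +N split and +N libraries on which the study called this gene, so it is not independent evidence of direction either. Of all tested genes, 3.64% were called higher in this average, and 2.96% had no overlap between groups within either stratum in this direction, as OL02T002258 had. The average stayed past the threshold in each of 19 alternatives, at log2 values of 1.09 to 1.48 and adjusted p of 1.47e-07 to 0.0163 (edgeR or DESeq2). Without −N replicate 1 it was 1.31, with an adjusted p of 0.00841 in edgeR. An exact two-sided permutation of the partner label within supplied and within deprived roots gave a difference of 1.27 on the log2 CPM scale and p = 0.005, the smallest value its 400 arrangements can give. Any gene without overlap in both strata, in the same direction, reaches that value, and 2.08% of genes had no overlap in the lower direction. The permutation p is not adjusted and only repeats the lack of overlap. The effect of the partner on the 2 sides did not differ detectably: the difference between the log2 fold changes was 0.34 (95% interval −0.59 to 1.26), with an adjusted p of 0.878 in edgeR. This interval is wide, and only 0.064% of all genes passed that test in either direction (16 genes, against 2304 at an unadjusted p under 0.05).

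**Figure D2:**
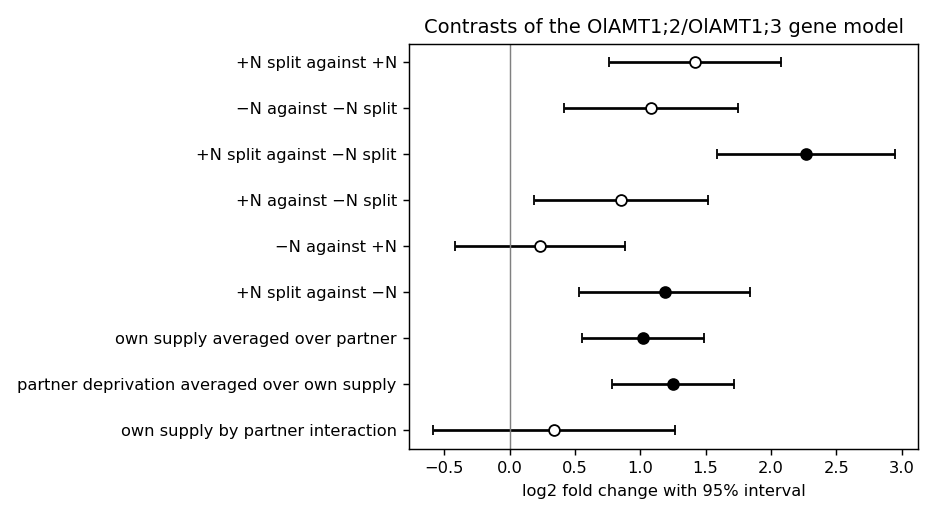
Log2 fold change of OL02T002258 with its 95% interval for 6 pairwise comparisons, for the averages over the 2 by 2 design and for the interaction, which is the difference between 2 log2 fold changes. Filled points passed an adjusted p of 0.05 in edgeR, and the largest difference, between the sides of split pairs, was 2.27.

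The root's own ammonium supply was compared in the same way, at a fixed condition of the partner. With a deprived partner, the level was 2.28-fold higher in supplied roots (+N split compared to −N, log2 fold change 1.19, SE 0.30), without overlap (19.6% of genes in this direction), and this passed with an adjusted p of 0.0128 in edgeR, as 12% of all genes did as higher in +N split. The call was lost without +N split replicate 3 (0.87, adjusted p = 0.0633) and without −N replicate 1 (1.06, adjusted p = 0.0557, both edgeR). With a supplied partner, the level was 1.80-fold higher in +N than in −N split roots (log2 fold change 0.85, SE 0.31), the groups overlapped, and the adjusted p was 0.0634 in edgeR, where 12.2% of genes passed as higher in +N. That comparison passed in 6 of 21 alternatives, among them the fit without −N split replicate 3 (1.31, adjusted p = 0.00806 in edgeR). Averaged over the partner's condition, own supply went with a log2 increase of 1.02 (SE 0.21, 95% interval 0.55 to 1.49) and an adjusted p of 0.00256 in edgeR, and it passed in all 19 alternatives at log2 values of 0.86 to 1.25. Calls of this kind were common, since 18.5% of all genes were higher with own supply. The exact two-sided permutation within each condition of the partner gave a difference of 1.04 and p = 0.01, with a smallest possible value of 0.005.

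Both conditions changed at once in the remaining comparisons. Between the sides of split pairs, OL02T002258 was 4.82-fold higher in +N split than in −N split roots (log2 fold change 2.27, SE 0.31, 95% interval 1.59 to 2.95). The groups did not overlap, as for 22% of genes in this direction, and the adjusted p was 0.000205 in edgeR, a call that 15.6% of genes shared and that held in all 21 alternatives. Between uniform pairs, by contrast, −N and +N roots differed by a log2 value of 0.23 (95% interval −0.42 to 0.88), with overlapping groups and an adjusted p of 0.657 in edgeR, and no alternative passed. In that comparison 19.2% of all genes passed in either direction. The interval still allows a difference of up to 0.88 in favor of −N. The order of the group means was thus +N split, −N, +N, −N split. In it, +N split stood above −N, and the neighbors −N and +N did not differ beyond their spread. The +N and −N split groups overlapped and did not pass, with an adjusted p of 0.0634 in edgeR. The same order of means was found in 1189 tested genes (4.76%). Both averages were called higher in 615 genes (2.46%), of which OL02T002258 is 1. These comparisons share libraries, so their values are not independent of each other.

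The replicates of this gene spread more than those of genes with a similar abundance. The biological coefficient of variation fitted for OL02T002258 was 0.260, compared to 0.140 on the trend at its abundance and a median of 0.111 over the 1000 genes nearest to it, of which 3.1% had a larger value. The within-group SD on the log2 scale was 0.44, against a median of 0.14 for the same genes. The coefficient of variation of the CPM was 34.9% in +N split and 47.9% in −N split, compared to 16.9% in +N and 16.6% in −N, so the replicates of split pairs varied more, although with 3 libraries a group this was not tested. In both split groups replicate 3 was the highest library. The summed photosynthesis level did not move with it in the same way: +N split replicate 3 had the highest summed level of all libraries (3468 CPM), while −N split replicate 3 had the lowest (616 CPM). Its part in the results was not tested. Several pairwise calls lay near the threshold and changed with the library left out or the test chosen.

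**Figure D3:**
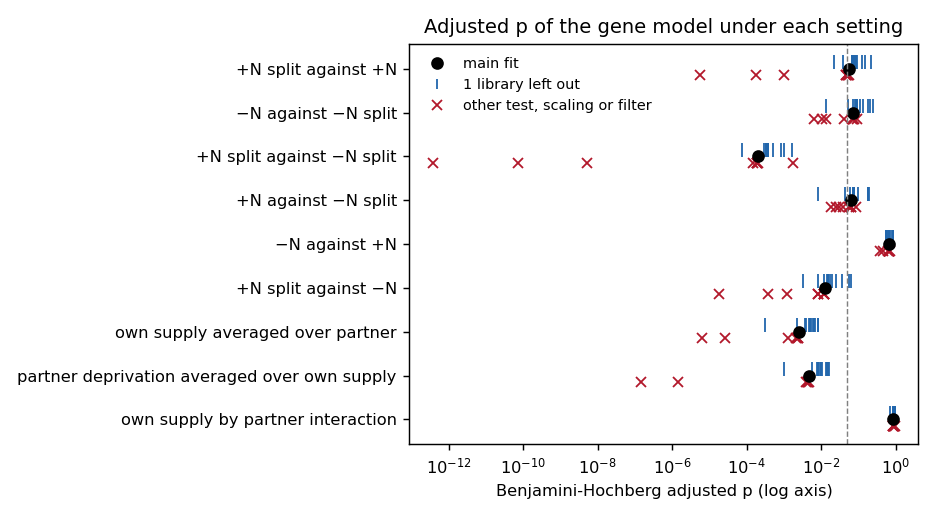
Benjamini-Hochberg adjusted p of OL02T002258 on a log axis for each comparison, with the main fit as a black point, each fit with 1 library left out as a blue bar and each other test, scaling or filter as a red cross. The dashed line is 0.05, and the averages over own supply and over the partner stay to its left in all 19 alternatives, while the comparison of +N split with +N has points on both sides.

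The other ammonium transporters that could be named here moved the other way with own supply. The gene descriptions used here name 2 other ammonium transporters beside OL02T002258. They come from supplementary tables of genes called on these libraries, so the lists are not independent of the directions, and the tables were read in part, so further members of the family may be missing. OL02T001811, described as ammonium transporter 3 member 3, had 0.863, 0.918 and 0.759 CPM in +N, 0.827, 1.52 and 1.76 in +N split, 4.09, 4.96 and 4.85 in −N, and 3.23, 4.17 and 3.74 in −N split. Every deprived library was above every supplied library, the reverse of OL02T002258 for own supply. Averaged over the partner it fell by 1.95 on the log2 scale with own supply (SE 0.18, adjusted p = 5.67e-06 in edgeR), and the partner average was 0.51 with an adjusted p of 0.122. OL03T003767, described as a member of the ammonium transporter family, had 39.9, 30.8 and 37.7 CPM in +N, 25.5, 37.4 and 27.1 in +N split, 58.1, 63.9 and 75.1 in −N, and 87.4, 91.1 and 77.8 in −N split. Its levels were highest where OL02T002258 was lowest, in −N split roots. It fell by 1.19 with own supply (SE 0.11, adjusted p = 5.25e-06 in edgeR), and its partner average of −0.32 had an adjusted p of 0.106. Both decreases with own supply held in all 19 alternatives, and neither gene passed the partner average in more than 1 of them.

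**Figure D4:**
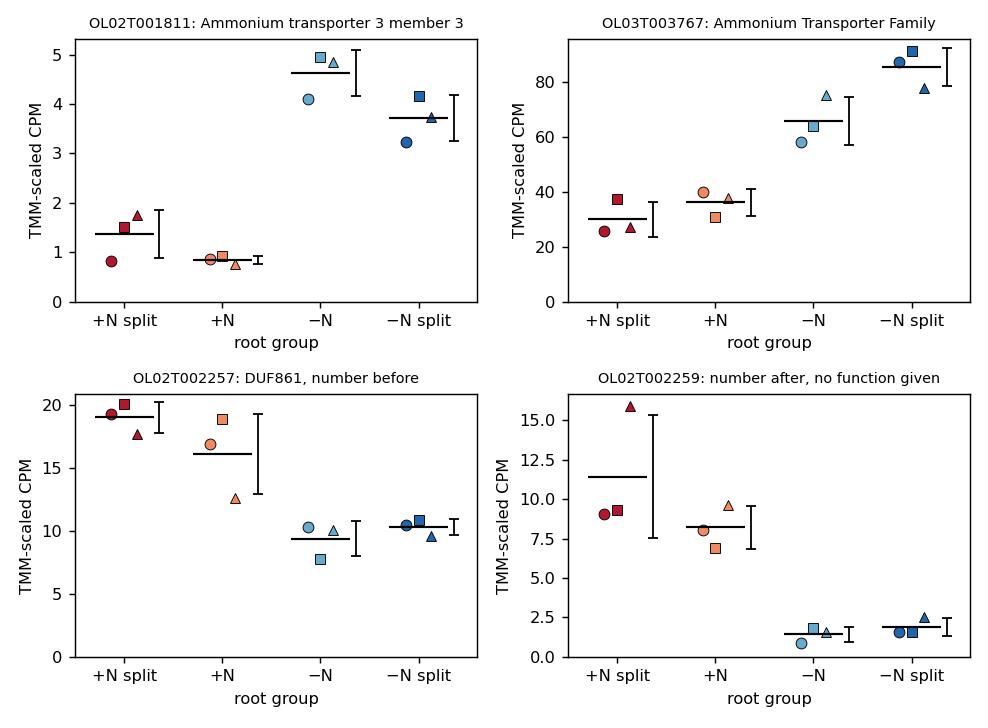
TMM-scaled CPM by root group of the other ammonium transporters (OL02T001811 and OL03T003767, upper panels) and of the gene models numbered just before and after OL02T002258 (OL02T002257 and OL02T002259, lower panels), with points for libraries, lines for means and bars for 1 SD (n = 3), each panel with an axis of its own from 0. The transporters in the upper panels are higher in deprived roots, and the gene models in the lower panels are higher in supplied roots.

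The other genes of ammonium and nitrate metabolism were taken from the same tables. Those hold genes the study called on these libraries, and the lists were chosen with earlier results known. Counts of list members, here and below, are therefore a description and cannot be weighed against the shares of all genes. Of these 15 genes, the other transporters included, 12 were higher and 3 lower with own supply (median log2 fold change 1.57, compared to 0.00 over all genes), while for a deprived partner 4 were higher, 2 lower and 9 did not pass (median 0.10, compared to −0.02). Over all genes, 37.4% and 5.59% were called in these averages in either direction. In +N split compared to +N, 4 of the 15 were higher and none lower (0.784% of all genes were called), and in −N compared to −N split 4 were higher and 1 lower (4% of all genes). The count of 4 in +N split compared to +N became 0 when replicate 1 or 3 of +N or replicate 2 or 3 of +N split was left out, and it reached 6 in other alternatives. The count of 2 lower genes in the partner average became 0 without +N replicate 1, +N split replicate 3, −N split replicate 2, −N replicate 1 or −N replicate 3. It also became 0 in the fit with the replicate number as a block. The count became 1 without any of 5 other libraries, and was 4 in the DESeq2 Wald test and edgeR's likelihood ratio test. In −N compared to +N, where OL02T002258 did not pass, 3 were higher and 11 lower, and 19.2% of all genes were called in either direction.

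Among the assimilation enzymes, OL05T002363 (OlNADH-GOGAT2), a glutamate synthase that uses NADH, was the 1 gene that passed in the direction of OL02T002258 for both own supply and the partner. It had 579, 623 and 710 CPM in +N split, 114, 186 and 135 in +N, 8.67, 8.11 and 19.4 in −N, and 2.03, 1.83 and 4.12 in −N split. No groups overlapped. Its partner average of 2.16 (SE 0.25, adjusted p = 0.000358 in edgeR) was larger than that of OL02T002258, a difference between genes that was not tested, and its log2 fold change with own supply was 5.74 (SE 0.28, adjusted p = 5.67e-08). OL03T000840 (OlGS1;2), a cytosolic glutamine synthetase, had 1696, 1575 and 1841 CPM in +N split, 1026, 1220 and 980 in +N, 124, 132 and 123 in −N, and 90.8, 127 and 160 in −N split. The deprived groups overlapped in full and the supplied groups did not overlap. Its own supply average was 3.42 (adjusted p = 8.13e-09 in edgeR), and its partner average of 0.33 had an adjusted p of 0.119. OL03T000841, also described as a glutamine synthetase, had 740, 663 and 818 CPM in +N split and 407, 544 and 416 in +N. In −N it had 42.6, 45.1 and 42.9 CPM, and in −N split 31.2, 46.0 and 62.5. The own supply average of OL03T000841 was 3.69 (adjusted p = 1.62e-08 in edgeR), and its partner average of 0.30 had an adjusted p of 0.255. OL02T003003 (OlGS1;1), another cytosolic glutamine synthetase, fell by 1.00 with own supply (adjusted p = 1.74e-06 in edgeR), with a partner average of −0.14 (adjusted p = 0.353). OL03T002893, described as a glutamate-ammonia ligase, rested on +N replicate 2 (18.1 CPM, compared to 0.427 to 2.28 in the other libraries), and its own supply average of 1.71 fell to 0.63 without that library (adjusted p = 0.126 in edgeR).

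Asparagine synthetase, which moves the amide of glutamine to asparagine, was higher with own supply and lower with a deprived partner. OL03T001277, the gene of that description, had an own supply average of 1.75 (adjusted p = 9.50e-07 in edgeR), and its partner average of −0.48 (adjusted p = 0.0417) passed in 10 of 19 alternatives. The glutamate dehydrogenase genes, whose enzyme interconverts glutamate and 2-oxoglutarate with release or capture of ammonium, were both higher with own supply (log2 0.39 for OL03T003426 and 1.45 for OL04T001869), as were 18.5% of all genes, and neither passed for the partner (adjusted p = 0.331 and 0.0735 in edgeR), where 5.59% of all genes passed in either direction.

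Nitrate reductase, which reduces nitrate to nitrite, was represented by 4 gene models, of which 3 were higher both with own supply and with a deprived partner, as OL02T002258 was. Over all genes, 2.46% were called higher in both averages. OL02T000926, OL08T001450 and OL08T001452 had partner averages of 1.01, 1.09 and 1.14 and own supply averages of 1.55, 1.67 and 1.57, and all passed (largest adjusted p = 0.000216 in edgeR). OL08T001450, the most abundant of them, had 37.5, 37.3 and 44.4 CPM in +N split, 21.7, 21.8 and 21.4 in +N, 16.9, 11.5 and 15.1 in −N, and 4.95, 6.70 and 5.93 in −N split. No groups overlapped, and +N was above −N, unlike in OL02T002258. The 3 models carry the same description, and reads of near-identical copies could be divided between them. The fourth, OL02T003220, was higher with own supply (3.96) and had a partner average of 0.10 (adjusted p = 0.745 in edgeR). The nitrate transporter OL02T002068 had a partner average in the other direction, −0.63, with an adjusted p of 0.0464 that passed in 9 of 19 alternatives.

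**Figure D5:**
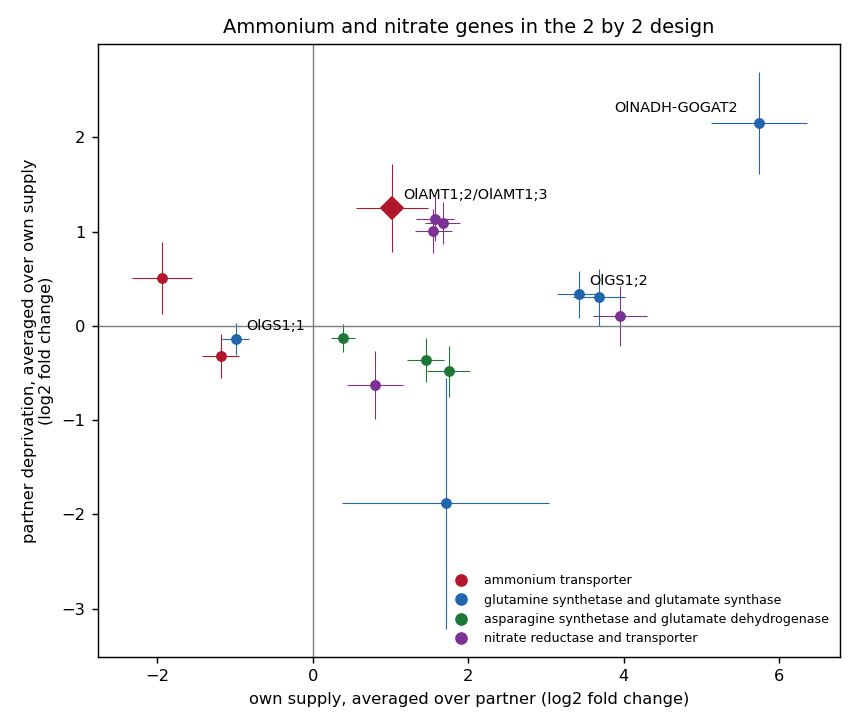
Own supply average (x axis) and partner average (y axis) as log2 fold changes with 95% intervals for OL02T002258 (diamond) and the 15 other ammonium and nitrate genes, colored by list. OL02T002258 (1.02 and 1.25) lies near 3 nitrate reductase genes, the other ammonium transporters lie left of 0, and OL05T002363 (OlNADH-GOGAT2) is farthest to the upper right.

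The gene models with the 5 numbers before and the 5 after OL02T002258 were also examined. Whether the numbers follow the position on the chromosome is not given in the sources used here, and no genome was used. Of these 10 gene models, 6 were tested, none of which passed for a deprived partner (5.59% of all genes did), and 3 passed for own supply (37.4% of all genes did). OL02T002259, for which the tables give no function, had 8.08, 6.92 and 9.64 CPM in +N, 9.08, 9.31 and 15.9 in +N split, 0.890, 1.81 and 1.58 in −N, and 1.57, 1.57 and 2.52 in −N split. Supplied and deprived libraries were fully separated, and +N and +N split overlapped. It was higher with own supply by 2.55 on the log2 scale (adjusted p = 3.14e-06 in edgeR), and its partner average was 0.04 (adjusted p = 0.932). OL02T002257, described as a protein of unknown function with a DUF861 domain, was higher with own supply by 0.83 (adjusted p = 8.35e-05 in edgeR) with a partner average of 0.05 (adjusted p = 0.835), and OL02T002254 was lower by 0.41 (adjusted p = 0.0174).

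The genes whose log2 CPM followed OL02T002258 most closely over the 12 libraries were found by Pearson's r, as a description, since the libraries share their groups. The 5 highest were OL11T000556, an alcohol dehydrogenase (r = 0.965), OL03T000351, a WAT1-related protein (0.961), OL03T002735, a glucose/sorbosone dehydrogenase (0.960), OL12T000445, an AMP-binding enzyme (0.958), and unmappedContigsT000545, another alcohol dehydrogenase (0.954). Alcohol dehydrogenase forms ethanol from acetaldehyde at the end of fermentation. Over all tested genes, 84 had an r above 0.9, as did none of the 15 ammonium and nitrate genes. Within groups, after the group means were removed, the r of these 5 genes with OL02T002258 was 0.787 to 0.868. Over the 15 ammonium and nitrate genes it ran from −0.392 (OL03T003767) to 0.853 (OL03T000841), with 0.850 for OL03T000840 (OlGS1;2). The nitrate reductase genes that were higher in both averages had 0.065 (OL08T001452), 0.206 (OL02T000926) and 0.244 (OL08T001450). OL11T000556 had 3853, 4069 and 5399 CPM in +N split, 1527, 2058 and 1493 in +N, 2113, 1756 and 2467 in −N, and 527, 733 and 958 in −N split. As for OL02T002258, replicate 3 was the highest library of both split groups and of −N, and +N replicate 2 was the highest of +N. The 5 genes were picked for their likeness to a gene called higher in both averages, on the same libraries. Their within-group r and order of replicates follow in part from that choice. Both are given as a description only, as are their own averages, with partner averages of 0.41 to 1.45 on the log2 scale.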

How the data were processed

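Root RNA libraries of 4 groups (n = 3) were made with a poly(A) kit. The authors used HISAT2 for mapping and featureCounts for counting, and deposited raw counts per gene model and log2 CPM of each library. The sources used here give no versions, strand setting or handling of read pairs, so counts of overlapping or near-identical genes may be divided between them. The deposited log2 CPM equaled log2 CPM of the counts at prior count 2 without TMM (largest difference 4.99e-09), and the counts were tested.

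Counts were analyzed in R 4.3.3 with edgeR 4.0.16: filterByExpr (minimum count 10, total 15) kept 25005 genes, TMM factors were 0.922 to 1.07, group means over all 12 libraries were fitted with glmQLFit, and contrasts were tested with glmQLFTest (two-sided) with Benjamini-Hochberg adjustment over all genes tested at 0.05. The pipeline was tested on simulated data. In the main fit, a p-value sets a contrast against the spread between these libraries, estimated over all 4 groups together and moderated with other genes. Alternatives were DESeq2 1.42.0 size factors and Wald test, edgeR's likelihood ratio test, fits on the 6 libraries compared (quasi-likelihood and exact), no filter, at least 1 CPM in 3 libraries, thinning to the smallest total, the replicate number as a block, and each library left out. Those for some of the other named genes, none of them in the photosynthesis list, were added after seeing the data.

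Named genes were OL02T002258, the list members, 5 gene models numbered before and 5 after it, and the 5 with the highest Pearson r. Members and lists were chosen with earlier results of these data known. Descriptions came from supplementary tables read in part. RT-qPCR, uptake and shoot data were not analyzed here, and no sequence is printed.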

Additional observations from a re-analysis of the deposited data

Results flagged for a closer look

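In the photosynthesis list, used here as a marker of green tissue, the effect of the partner on OL02T000345, described as a ribulose bisphosphate carboxylase small chain, differed between supplied and deprived roots by a test of the difference itself (interaction −3.36 on the log2 scale, SE 0.50, adjusted p = 0.0374 in edgeR's quasi-likelihood test). Its level was 30.9 to 42.5 CPM in +N, 24.0 to 42.4 in +N split, 21.6 to 30.0 in −N, and 1.35 to 4.89 in −N split, so the −N split libraries were below all others. It was 9.77-fold higher in −N than in −N split roots (adjusted p = 0.000493 in edgeR). It was the 1 gene of 20 in the list to pass the test of the interaction, which 0.064% of all genes passed. The alternatives were not run for this gene, so whether its call depends on the processing is not known. Over the settings run, the share of all genes that passed the interaction was 0.0278% to 1.33%.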

How the results depend on the processing

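For OL02T002258, the averages for own supply and for a deprived partner and +N split compared to −N split passed in all alternatives run, and −N compared to +N and the interaction in none. Both exact permutations stayed at an unadjusted p under 0.05, which for the partner repeats the lack of overlap. The other pairwise comparisons passed in some. +N split compared to +N passed with the DESeq2 Wald test (1.43), edgeR's likelihood ratio test (1.42), no filter (1.43, adjusted p = 0.0481 in edgeR) and the quasi-likelihood and exact tests on 6 libraries (both 1.43). −N compared to −N split passed with the Wald (1.08), likelihood ratio (1.08) and exact tests (1.09), and +N compared to −N split with the same tests (0.85 in each). With 1 library left out, the log2 values ranged from 1.11 to 1.60 for +N split compared to +N, 0.84 to 1.54 for −N compared to −N split, 0.61 to 1.31 for +N compared to −N split, 0.87 to 1.37 for +N split compared to −N, and −0.12 to 0.58 for the interaction, which turned negative without −N split replicate 3. The cause was not tested.

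Whether the replicate numbers pair the libraries is not given in the labels. Deviations of same-numbered libraries correlated at −0.159 to 0.233 over all genes, above 0.1 in 5 of 18 pairs, and those of different-numbered libraries at −0.223 to 0.168. For +N split and +N, same-numbered libraries gave 0.0704 to 0.187 and different-numbered ones −0.167 to −0.0114. For −N and −N split, same-numbered libraries gave −0.159 to 0.0588. These values differ between pairs of groups and cannot decide it. With the replicate number as a block, −N compared to −N split (1.14, adjusted p = 0.0415 in edgeR) and +N compared to −N split (0.95, adjusted p = 0.0258) passed, and no other call for OL02T002258 changed.

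The share of all genes called ran from 0.0238% (without +N split replicate 3) to 3.2% (Wald test) for +N split compared to +N, from 1.85% to 7.52% for −N compared to −N split, from 3.61% to 9.41% for the partner average and from 0.0278% to 1.33% for the interaction. Among other named genes, the near-zero partner averages changed sign with a library left out, at −0.11 to 0.18 for OL02T002259 and −0.024 to 0.12 for OL02T002257.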
